A study of Mus musculus with 16 samples.

Results

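The calcium/calmodulin-dependent protein kinases described here comprised 10 genes: Camk4, the 4 CaMKII subunit genes Camk2a, Camk2b, Camk2d and Camk2g, the CaMKI genes Camk1, Camk1d and Camk1g, and the upstream kinases Camkk1 and Camkk2. They were taken by name from a table of 55404 genes, and all 10 passed the filter on low values that 23244 genes passed. Camk4 had been singled out because its values differed between genotypes in these same mice, and the other 9 were added as its relatives. The genotype difference of these genes is therefore given as a description, with a standard error (SE) and a 95% interval and without a test.

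RNA of whole brain was sequenced from 8 Tecpr2 ki/ki and 8 wt/wt mice of 5 months, which received no treatment. Per a figure legend of the study, the mice were males. TECPR2 is a protein of autophagy and membrane traffic whose loss causes a hereditary sensory and autonomic neuropathy in humans. The ki/ki mice are homozygous for the frameshift allele L1152fs, made with CRISPR/Cas9 in C57BL/6J zygotes as a deletion of a single base together with a silent change, and founders were crossed to C57BL/6J. How many founder lines the sequenced animals descend from is not given in the sources used here. Tecpr2 itself checked the labels: values averaged 963 ± 24.4 in the wt/wt mice and 300.2 ± 14.1 in the ki/ki mice (SD, n = 8 each), without overlap. Values summed to between 11964284 and 12252324 per mouse. They are normalized and no longer carry the read depth.

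When calcium enters a neuron it binds calmodulin, and calcium-loaded calmodulin opens the autoinhibited kinase domain of this family. CaMKII assembles into a large holoenzyme that phosphorylates itself and stays active after calcium has fallen, and it is a principal protein of the postsynaptic density. CaMKI and CaMKIV are single-chain kinases that need a further phosphorylation by the CaMK kinases CaMKK1 and CaMKK2. CaMKIV, the product of Camk4, works largely in the nucleus, where it phosphorylates the transcription factor CREB, and it is known to be abundant in cerebellar granule cells, cortex, hippocampus and striatum.

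These genes are paralogs, so how well reads can tell them apart bears on every value. Stretches of 31 bases were compared across all annotated mouse transcripts. The share that also occurred in any other gene was highest for Camk2a, at 0.79%, and was 0% for Camk4, Camk2g, Camk1g and Camkk1. The 60 coding bases at which Camk2b, Camk2d and Camk2g differ least are shown to let the sequences of these 3 paralogs be compared where they are most alike as a group. All 3 lie across the junction of exons 5 and 6 of the longest coding transcript, and capitals mark the 9 positions at which the 3 genes are not identical, while the other 51 are shared. The positions given span the intron between the exons.
Camk2b, chr11:5992882-5997931 (-), GRCm38: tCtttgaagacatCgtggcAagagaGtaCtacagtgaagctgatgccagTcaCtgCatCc
Camk2d, chr3:126767531-126770795 (+), GRCm38: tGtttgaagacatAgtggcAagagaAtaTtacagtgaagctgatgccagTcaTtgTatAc
Camk2g, chr14:20766215-20770112 (-), GRCm38: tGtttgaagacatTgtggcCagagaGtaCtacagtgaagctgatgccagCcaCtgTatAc

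Even there, Camk2b and Camk2d differed at 7 bases, Camk2b and Camk2g at 6, and Camk2d and Camk2g at 6. Annotated neighbours were a smaller matter for Camk4, which spans chr18:32934931-33191228 (+) in GRCm38 and overlaps only an antisense gene, 2310026I22Rik, with a mean value of 6.81. Camk2d contains 7 genes annotated on its own strand, with mean values from 5.12 to 111, and reads falling in them could have been kept from Camk2d by the counting.

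Values of Camk4 were lower in the ki/ki mice. The lowest, median and highest values were 1270, 1289.5 and 1373 in the ki/ki mice and 1338, 1395.5 and 1453 in the wt/wt mice. Of the 8 ki/ki mice, 7 lay below the lowest wt/wt mouse, and only ki/ki replicate 7, at 1373, reached into the wt/wt range. The genotypes thus overlapped, through that mouse and wt/wt replicate 6, at 1338. Means were 1306 ± 35.5 in ki/ki and 1399 ± 36.3 in wt/wt (SD, n = 8 each), a difference of −6.65% of the wt/wt mean. On the scale of log2(value + 1) the difference was −0.10 with an SE of 0.03 and a 95% interval from −0.15 to −0.05. Leaving out each mouse in turn moved it between −0.11 and −0.09. Since Camk4 was chosen on this difference, these mice give no independent estimate of its size.

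**Figure D1:**
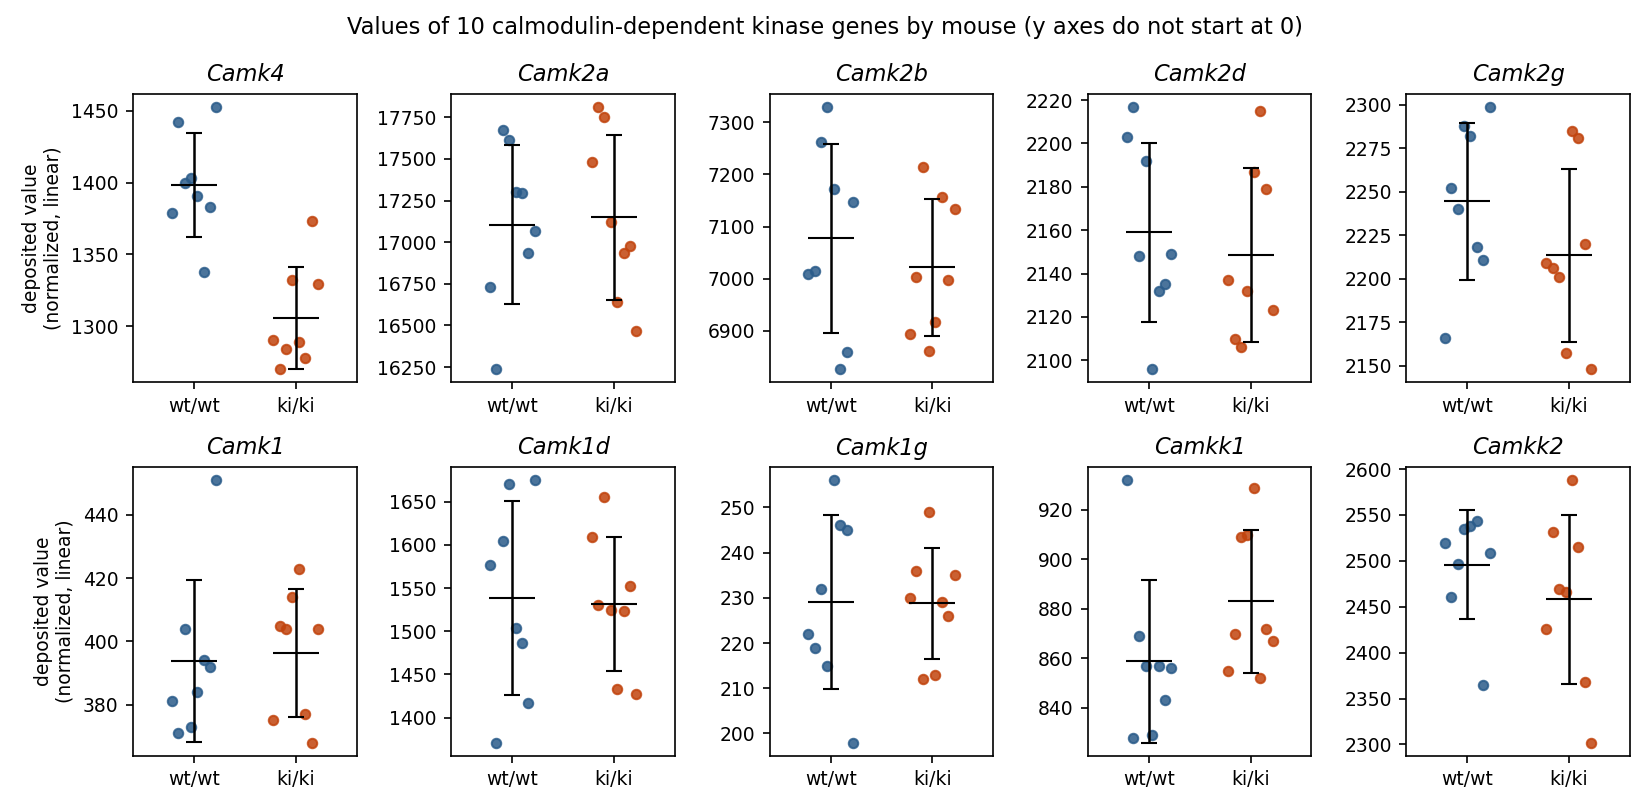
Deposited values of the 10 kinase genes in each mouse (1 point per mouse, 8 wt/wt in blue and 8 Tecpr2 ki/ki in red, bars for mean and SD, y axes not starting at 0). Camk4 is the gene whose ki/ki points lie mostly under its wt/wt points, with 7 of 8 below the lowest wt/wt mouse; in the other 9 genes the points of both genotypes are interleaved.

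The CaMKII subunits showed no such shift. Camk2a, the main forebrain subunit, had values from 16465 to 17814 (median 17051) in ki/ki and from 16238 to 17672 (median 17181.5) in wt/wt. Its log2 difference was 0.0036 with a 95% interval from −0.03 to 0.04. The ranges of Camk2a largely coincided, with 2 ki/ki mice above the highest wt/wt mouse and none below the lowest. Camk2b, whose subunit ties the holoenzyme to actin, ranged from 6861 to 7214 in ki/ki and from 6827 to 7330 in wt/wt, and its ki/ki values lay entirely inside the wt/wt range. The log2 difference of Camk2b was −0.01 with an interval from −0.04 to 0.02. Camk2d and Camk2g encode the subunits found in most tissues. Camk2d had means of 2149 ± 40.0 in ki/ki and 2159 ± 41.2 in wt/wt (SD, n = 8 each). For Camk2g the means were 2213 ± 49.9 in ki/ki and 2244.5 ± 45.2 in wt/wt (SD, n = 8 each), with 2 ki/ki mice below the lowest wt/wt mouse and an interval of the log2 difference from −0.06 to 0.02.

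The makeup of the CaMKII transcripts was also nearly the same in both genotypes. Counted per kilobase of exons, Camk2a made up 65.5% ± 0.75 of the 4 subunit transcripts in ki/ki and 65.2% ± 0.588 in wt/wt (SD, n = 8 each). Camk2b followed with 21.9% and 22.1%, Camk2g with 9.86% and 9.98%, and Camk2d with 2.72% and 2.73%. With the longest transcript as the length, the shares in wt/wt became 55.9% for Camk2a, 27.9% for Camk2b, 9.85% for Camk2g and 6.35% for Camk2d, so the shares depend on the length while the likeness of the genotypes does not. The ratio of the deposited Camk2a and Camk2b values ran from 2.31 to 2.54 over the 16 mice.

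The CaMKI genes varied more from mouse to mouse. Camk1d, also known from granulocytes, ranged from 1427 to 1655 in ki/ki and from 1371 to 1675 in wt/wt, the ki/ki range lying inside the wt/wt range. Camk1, the ubiquitous member, had means of 396 ± 20.2 in ki/ki and 394 ± 25.6 in wt/wt (SD, n = 8 each). Camk1g, which is enriched in brain and anchored to membranes by a lipid, had means of 229 ± 12.2 in ki/ki and 229 ± 19.2 in wt/wt (SD, n = 8 each). The log2 differences of Camk1d, Camk1 and Camk1g were −0.0042, 0.010 and 0.00033. The intervals were wider than those of CaMKII, and that of Camk1g ran from −7.33% to 7.96%. A decrease of the size seen in Camk4 lies inside the interval of Camk1g and was not detectable with this spread.

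The upstream kinases differed in opposite directions by amounts within their spread. Camkk1 had a median of 871 in ki/ki, with values from 852 to 929, and of 856.5 in wt/wt, with values from 828 to 932. Its log2 difference was 0.04 with an interval from −0.02 to 0.10, the largest of the 9 relatives in absolute size. Camkk2, which also phosphorylates the energy sensor AMPK, ran from 2302 to 2588 in ki/ki and from 2365 to 2543 in wt/wt, with 1 ki/ki mouse below and 1 above the wt/wt range. The log2 difference of Camkk2 was −0.02 with an interval from −0.07 to 0.02.

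Across the 10 genes, 6 had a lower and 4 a higher mean in ki/ki on the log2 scale, with a median of −0.0056 beside −0.00098 over all 23244 genes. None passed an adjusted p under 0.1, which 0.133% of all genes did. At an unadjusted p under 0.01, 1 gene (Camk4) was lower, against 0.701% of all genes, and 0 were higher, against 0.856%. Groups without overlap occurred in 0 of the 10 genes and in 0.0860% of all genes. Because the same contrast chose Camk4, these counts are printed for orientation.

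**Figure D2:**
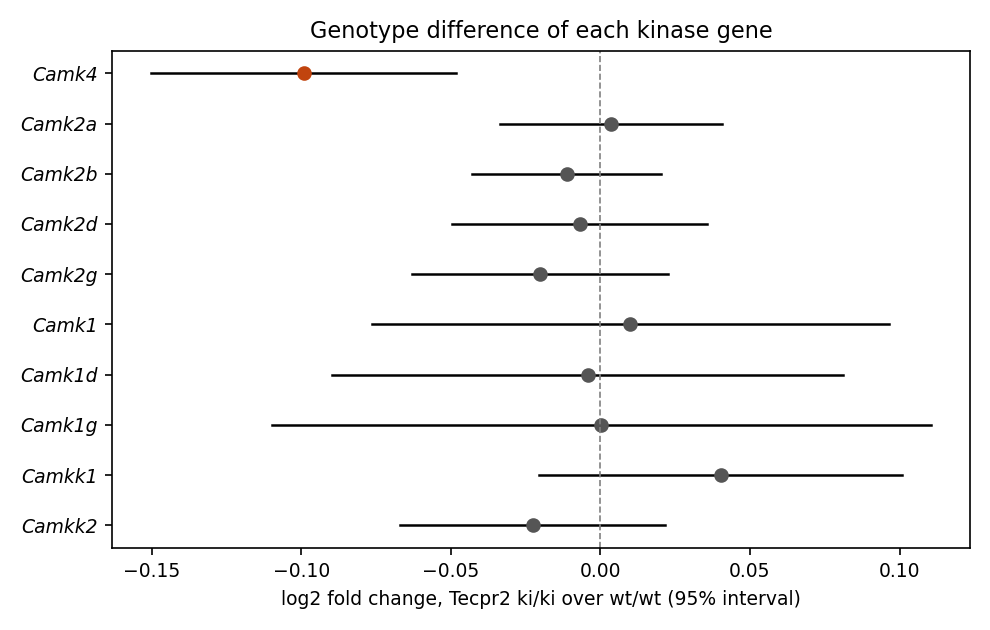
Log2 fold change of each kinase gene, Tecpr2 ki/ki over wt/wt, with its 95% interval (points and lines; the dashed line marks no difference; Camk4 in red). The interval of Camk4 runs from −0.15 to −0.05, and those of the other 9 genes all cross the dashed line.

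The spread between mice sets how small a difference can be seen. For Camk4 the coefficient of variation was 2.60% in wt/wt and 2.72% in ki/ki, and counting alone would give 2.72% if the deposited values were reads. Under that condition, the spread of Camk4 between brains was at about its counting level, and the counting levels below rest on the same condition. Camk2a, at 2.78% and 2.89%, lay well above its counting level of 0.764%. Camk1d, at 7.31% in wt/wt and 5.08% in ki/ki, had a counting level of 2.55%, and Camk1g, at 8.39% and 5.33%, of 6.61%.

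The order of the levels does not use the genotype contrast. Per kilobase of annotated exons, Camk2a was highest in the wt/wt mice, at 2291 ± 63.6 (SD, n = 8), followed by Camk2b at 776 ± 19.9 (SD, n = 8). Camk4 came next at 429 ± 11.1 (SD, n = 8), ahead of Camk2g at 351 ± 7.07 (SD, n = 8). Camkk2 and Camkk1 stood side by side at 229 ± 5.43 and 230.4 ± 8.82 (SD, n = 8 each), above Camk1d at 207 ± 15.1 (SD, n = 8). Camk2d at 96.0 ± 1.83, Camk1g at 83.0 ± 6.97 and Camk1 at 65.9 ± 4.29 (SD, n = 8 each) closed the order, and the first level was 34.8 times the last.

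Neighbours in this order were compared within each wt/wt mouse with an exact two-sided sign-flip permutation test, adjusted over 9 pairs. The order was set by the medians of the same 8 mice. The p-values therefore describe how constant each gap was between mice, and not the uncertainty from the lengths. Camk4 exceeded Camk2g in 8 of 8 mice by 0.29 ± 0.03 (SD) on the log2 scale (exact p = 0.00781, the smallest that 8 mice allow, adjusted p = 0.010). Camk2b exceeded Camk4 in 8 of 8 mice by 0.85 ± 0.04 (SD), with the same exact p. Of the 9 pairs, 8 passed an adjusted p under 0.05. Camkk2 and Camkk1 did not differ beyond their spread (mean log2 difference −0.01 ± 0.06 (SD), Camkk2 higher in 5 of 8 mice, exact p = 0.641). In the ki/ki mice the order of the medians was the same but for this pair, and the mean log2 difference of Camkk2 over Camkk1, which had the same sign in both genotypes, was −0.07 (adjusted exact permutation p = 0.0234). Whether the difference within that pair itself differed between the genotypes was not tested. Camk1g exceeded Camk1 in 7 of 8 mice (adjusted exact p = 0.0176).

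The order rests on the lengths, which came from an annotation of GRCm38 and not from the one used for counting. With the longest transcript of each gene in place of the union of exons, Camk4 went by its median from rank 3 to rank 5, behind Camk2g and level with Camkk2 (515 ± 13.4 and 513 ± 12.2, SD), and 4 of the 9 neighbour pairs kept their direction and passed. Camk2d, whose exons add up to 22493 bases against 5524 in its longest transcript, then went from rank 8 to rank 6. Camk2a and Camk2b were first and second under both lengths.

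**Figure D3:**
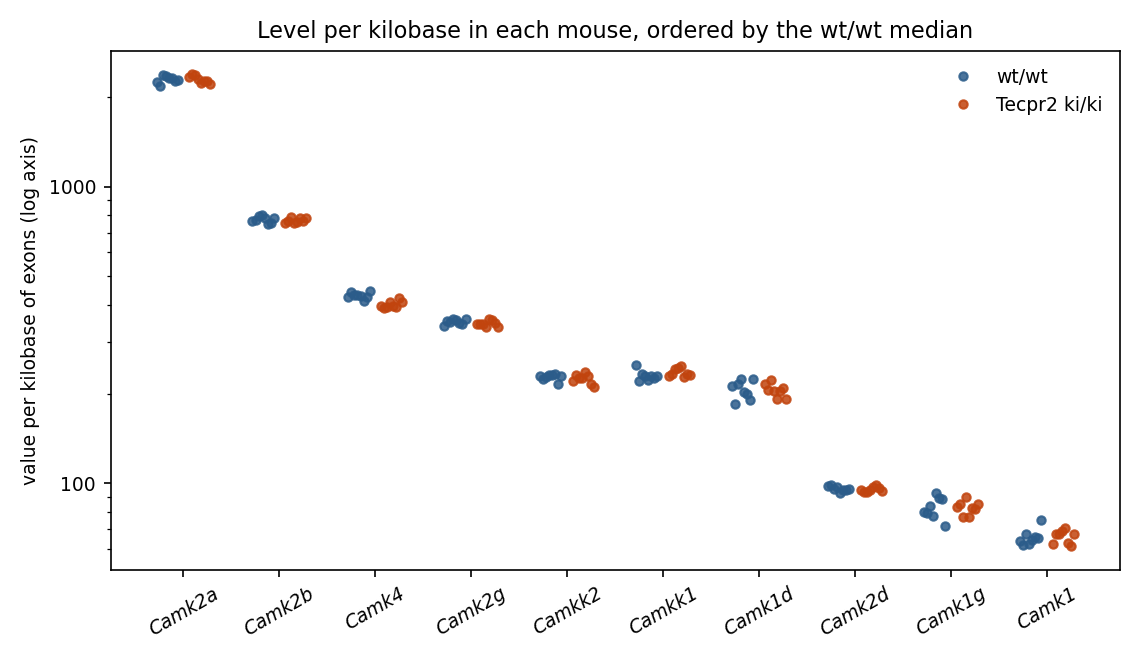
Level of each gene per kilobase of exons in each mouse (log axis, genes ordered by the wt/wt median, 8 wt/wt in blue and 8 Tecpr2 ki/ki in red). Camk2a lies near 2291 and Camk1 near 65.9 in wt/wt, the medians of both genotypes share 1 order except for Camkk2 and Camkk1, and most ki/ki points of Camk4 sit under its wt/wt points.

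Around the kinases, 75 pathway genes in 6 lists were examined, of which 73 were tested. The lists were chosen with earlier results of these mice known. None passed an adjusted p under 0.1 in limma, 5 passed an unadjusted p under 0.01 (unadjusted p from the fit across all genes), and all 5 were lower in ki/ki. That is 6.85% of the tested pathway genes beside 0.701% of all genes that were lower. Another 0.856% of all genes were higher at this threshold, against 0 pathway genes, and 362 of the 23244 genes passed in either direction. Among genes with a mean value of at least 50 it was 4 of 71, beside 0.937% of all such genes that were lower. Overall 26 pathway genes were higher and 47 lower, with a median log2 difference of −0.02 beside −0.00098 over all genes. The count of 5 came to 3 when ki/ki replicate 3, 4 or 8 or wt/wt replicate 6 was left out, and to 2 without wt/wt replicate 7.

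The relatives of the CaM kinases held 3 of these genes among 14 tested. Dclk3, a doublecortin-like kinase known for its expression in striatum, had a median of 286.5 and a highest value of 319 in ki/ki, while its wt/wt values ran from 293 to 353 with a median of 324. Of the 8 ki/ki mice, 6 lay below the lowest wt/wt mouse. The log2 difference of Dclk3 was −0.18 with an SE of 0.05 (limma, unadjusted p = 0.000622, adjusted p = 0.225). Dclk1, a microtubule-binding kinase of the same family, had means of 8017 ± 130.4 in ki/ki and 8265 ± 205 in wt/wt (SD) and a log2 difference of −0.04 (limma, adjusted p = 0.527). Mylk3, the myosin light chain kinase of heart muscle, was near the low end of what can be measured, at 12.4 ± 2.13 in ki/ki and 19.1 ± 6.71 in wt/wt (SD, n = 8 each), and had an adjusted p of 0.588 in limma. In the same list 7 genes were higher and 7 were lower. Of the higher genes, Phkg1, a catalytic subunit of phosphorylase kinase, had a log2 difference of 0.15 (limma, adjusted p = 0.820). Dapk2, also at low values, was higher, at 18.0 ± 2.33 in ki/ki and 14.25 ± 5.92 in wt/wt (SD, n = 8 each). Its log2 difference was 0.40 (limma, unadjusted p = 0.0477, adjusted p = 0.820), and it is named here after its values were seen. Phkg2 had a log2 difference of −0.06.

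The CREB and nuclear arm, downstream of CaMKIV, held the other 2 among 16 tested. Hdac9, a class IIa histone deacetylase that CaM kinases drive out of the nucleus, had means of 710 ± 35.2 in ki/ki and 759 ± 24.1 in wt/wt (SD, n = 8 each), with 5 of 8 ki/ki mice below the lowest wt/wt mouse. Its log2 difference was −0.10 with an SE of 0.03 (limma, adjusted p = 0.513). Mef2c, a transcription factor that these deacetylases repress, had means of 4796 ± 96.7 in ki/ki and 4976 ± 148 in wt/wt (SD) and a log2 difference of −0.05 (limma, adjusted p = 0.513). Of the rest of that list, Atf1 and Hdac7 had log2 differences of −0.09 and −0.07 with adjusted p of 0.902 and 0.890 in limma. The 8 higher and 8 lower genes of the nuclear list gave a median of 0.0038. Creb1 itself, the best-known substrate of CaMKIV, had means of 1097 ± 54.2 in ki/ki and 1110 ± 48.4 in wt/wt (SD, n = 8 each), a log2 difference of −0.02, and is named here after its values were seen.

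No gene passed in the other 4 lists. Of calmodulin and its buffers, 1 of 7 was higher and 6 were lower, the largest differences being those of Pcp4l1 (−0.07), of its relative Pcp4 (−0.06), a small calmodulin-binding protein, and of Gap43 (−0.03), a growth cone protein that holds calmodulin at the membrane. Of the CaMK inhibitors and phosphatases, 2 of 14 were higher and 12 were lower, with a median log2 difference of −0.03. Ppp3cc, a calcineurin catalytic subunit, had a log2 difference of −0.11, Ppp2ca, the catalytic subunit of phosphatase PP2A, of −0.06, and the calcineurin regulator Rcan2 of −0.04. Of the CaMKII synaptic partners, 5 of 15 were higher and 10 lower, with the actin crosslinker Actn2 at −0.08, the NMDA receptor subunit Grin2a at −0.04 and the calcium channel Cacna1c at 0.04. Of the AMPK arm of CaMKK2, 3 of 7 were higher and 4 lower, with the catalytic subunits Prkaa1 and Prkaa2 at −0.09 and −0.05 and the regulatory subunit Prkag1 at 0.04.

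**Figure D4:**
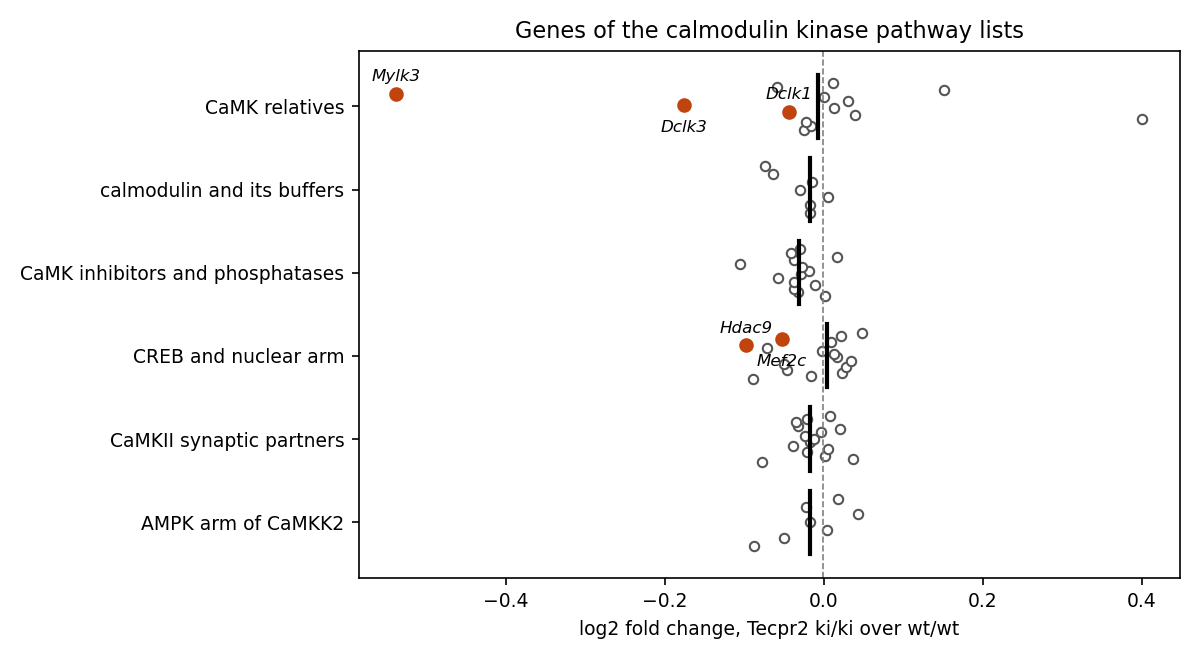
Log2 fold change of the 73 tested pathway genes by list (open points), with the list median (black bar) and the median of all genes (dashed line); filled red points are the 5 genes at an unadjusted p under 0.01. All 5, namely Dclk3, Dclk1, Mylk3, Hdac9 and Mef2c, lie to the left, and most other genes lie within 0.1 of the dashed line.

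Markers of striatal projection neurons separated the genotypes in these brains, and their part in the lower Camk4 and Dclk3 values was not tested. The 8 markers of striatal projection neurons summed to between 6329 and 6832 in ki/ki and to between 6857 and 7388 in wt/wt, without overlap, all 8 were lower, and none was at 0 in all mice. Their score, the mean log2 value after scaling to equal totals with 1 added, was 5.52 ± 0.02 in ki/ki and 5.62 ± 0.03 in wt/wt (SD, n = 8 each). The list includes Penk, which other work on these mice had picked for its genotype difference. Penk was the only one of the 8 without overlap, at most 1149 in ki/ki and at least 1155 in wt/wt. The list is therefore no independent evidence of its direction or of the separation of the genotypes. Sums and scores without Penk were not computed. The 8 forebrain excitatory markers were likewise all lower, with scores of 5.67 ± 0.03 and 5.71 ± 0.03 (SD, n = 8 each), and sums from 10109 to 10453 against 9846 to 10931. Cerebellar granule cell markers, from a region where Camk4 is abundant, summed to between 9072 and 10541 in ki/ki and between 8671 and 10877 in wt/wt, and 7 of 9 were higher. Caudal brainstem markers summed to 419 to 598 in ki/ki and 405 to 553 in wt/wt, and 5 of the 6 tested were higher. Their scores were 1.41 ± 0.17 and 1.27 ± 0.10 (SD, n = 8 each). Most of the caudal brainstem sum was Slc6a5, and the Hox genes had means of at most 9.38. Hoxb4, the only one at an unadjusted p under 0.01, averaged 7.25 in ki/ki and 2.625 in wt/wt (limma, adjusted p = 0.165). Pan-neuronal markers summed to 59808 to 62549 and 60112 to 63928, and 6 of 8 were lower. In bulk tissue, fewer cells of a type and less RNA per cell cannot be told apart, and the genotype and the striatal score cannot be told apart across these 16 mice.

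Markers of cells from outside the brain tissue had lower sums than those of astrocytes, microglia and oligodendrocytes. T cell markers, from a lineage that also expresses Camk4, summed to 36 to 66 in ki/ki and 39 to 70 in wt/wt over 6 genes. Most of that sum was Cd4, with means of 47.25 in ki/ki and 48.6 in wt/wt. The Cd3 and Cd8 genes had means of at most 3.25. Blood markers summed to 239 to 372 and 176 to 343. The 5 liver and muscle markers summed to 387 to 515 in ki/ki and 421 to 464 in wt/wt. Among them the liver gene Alb was at 0 in all mice, but Ttn had means of 411 in ki/ki and 396 in wt/wt. Astrocyte markers summed to 61241 to 63588 in ki/ki and 58263 to 61654 in wt/wt, microglia markers to 1893 to 2020 and 1739 to 1936, and oligodendrocyte markers to 45247 to 51491 and 45495 to 51057.

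Within genotypes, Camk4 was compared with the other 9 genes and 5 marker scores over 16 mice, after the genotype means had been subtracted. None of the 14 relations passed an adjusted permutation p under 0.05. The strongest was with Camkk2, the kinase upstream of CaMKIV, with Pearson r −0.47 (permutation p = 0.0781, adjusted p = 0.693) and Spearman rho −0.62 (permutation p = 0.0156, adjusted p = 0.218). Without the 2 mice farthest from the median of Camkk2 its r was −0.65, and without the 2 farthest from the median of Camk4 it was −0.45. It was −0.69 in the 8 ki/ki mice and −0.14 in the 8 wt/wt mice. With the striatal score, Camk4 had r −0.32 (permutation p = 0.247) and rho −0.24 (permutation p = 0.386), and r came to −0.01 without the 2 farthest mice. With the cerebellar score it had r 0.36 (permutation p = 0.184) and rho 0.15 (permutation p = 0.583), and r was 0.28 without the 2 farthest.

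**Figure D5:**
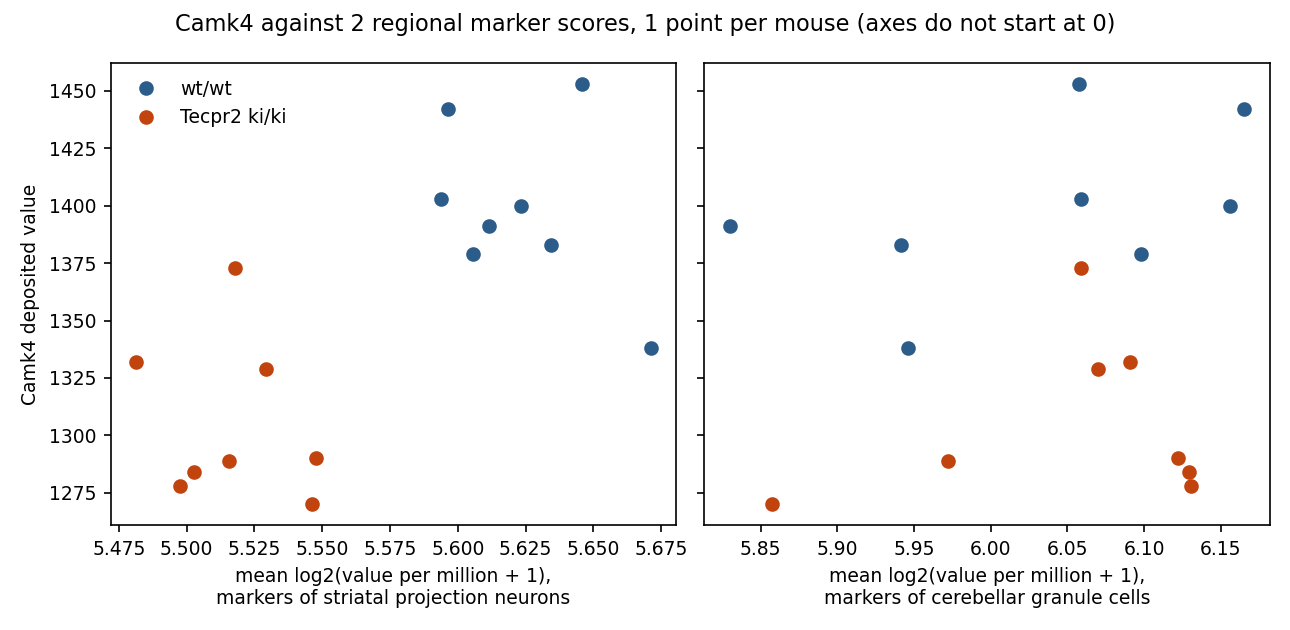
Camk4 value against the striatal (left) and cerebellar (right) marker score, 1 point per mouse, wt/wt in blue and Tecpr2 ki/ki in red, axes not starting at 0. On the left the genotypes form 2 separate groups, since all ki/ki scores are lower, with r −0.32 once genotype means are removed; on the right the scores of both genotypes cover about the same range.

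All 45 pairs of the 10 genes were then compared in the same way, a family added after the data had been seen. Camk2a and Camk1d had the highest correlation, with r 0.70 (permutation p = 0.00315, adjusted p = 0.142) and rho 0.63 (permutation p = 0.0107, adjusted p = 0.355). It was 0.82 in ki/ki, 0.64 in wt/wt and 0.67 without the 2 mice farthest from the median of Camk2a. Camk2a and Camk2d ran against each other, with r −0.53 (permutation p = 0.0444, adjusted p = 0.648) and rho −0.57 (permutation p = 0.0293, adjusted p = 0.439), and r was −0.35 without the 2 farthest mice. None of the 45 pairs passed the adjustment, for r or for rho. An unadjusted permutation p under 0.05 was found for 2 pairs by Pearson r and for 4 by Spearman rho.

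Among 11181 tested genes with a mean value of at least 100, those most like Camk4 from mouse to mouse were found by Pearson r over 16 mice after the genotype means had been subtracted. They are given as a description, since the points share library and normalization and the genes were the extremes of a long list. The 8 highest were Qser1 (r 0.80), Ctif (0.77), Cldn12 (0.77), Acad9 (0.76), Nfkb1 (0.74), Ube2g2 (0.73), Zfp870 (0.73) and Rfx7 (0.73). The 4 lowest were Ctnnbip1 (−0.82), Arf1 (−0.81), Scara3 (−0.79) and Csf1r (−0.78). For Qser1, r was 0.84 in ki/ki and 0.82 in wt/wt, and for Csf1r it was −0.79 and −0.78. None of the other 9 kinase genes was among these 12.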

How the data were processed

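Total RNA of whole brain from 16 mice was sequenced by the authors as stranded libraries after ribosomal RNA depletion. Per the labels and the study's methods, reads were trimmed with Trim Galore 0.6.10 and cutadapt 3.4, aligned with STAR 2.7.10b, counted per gene with summarizeOverlaps, and tested by the authors with DESeq2 1.40.2. What the authors deposited is 1 whole-number score for each gene in each mouse, normalized on a linear scale by a method not given in the sources used here. The tables of single mice and of all mice were identical (16 of 16), and no count test was run.

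Groups came from the labels. Genes with a summed value over 16 and with values over 5 in 4 or more mice of either genotype were fitted on log2(value + 1) with limma 3.58.1 in R 4.3.3 (trend and robust, genotype as the only term), with Benjamini-Hochberg adjustment over 23244 genes. Calls were read at an adjusted p under 0.1 and at an unadjusted p under 0.01. The limma steps were tested on simulated data. Rounding and the pseudocount of 1 shrink differences of low genes. Levels were divided by the union of exons in the GENCODE annotation of GRCm38, a build other than that of the counting, which also gave positions, sequences and symbols (52017 of 55404 genes). Correlations used genotype-centred log2 values and 100000 permutations within genotype, with Python 3.11.15, numpy 2.4.6, scipy 1.17.1 and pandas 2.3.3, and figures matplotlib 3.10.9.

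The members and lists were chosen with earlier results of these data known. Named genes were the 10 kinases, Tecpr2, pathway genes at an unadjusted p under 0.01, the 3 largest absolute log2 fold changes per list among genes with a mean of at least 50, and the 8 highest and 4 lowest correlations with Camk4. Creb1 and Dapk2 were added after their values were seen, and some marker genes are named beside their lists. The alternatives were other filters, pseudocounts, scalings, variance models, lengths, the replicate number as a term, and leaving out each mouse.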

Additional observations from a re-analysis of the deposited data

Results flagged for a closer look

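In 54 groups of 8 values (the kinase genes, Tecpr2, the called pathway genes and the marker scores, in each genotype), 3 had a mouse far from the other 7 by Dixon's test; chance gives about 1 in 20. Camk1 was 451 in wt/wt replicate 8, with the next mouse at 404 and the lowest at 371. Camkk1 was 932 in wt/wt replicate 1, with the next mouse at 869 and the lowest at 828. Camkk2 was 2365 in wt/wt replicate 7, with the next mouse at 2461 and the highest at 2543. No value of Camk4 stood apart in this way. Without that mouse, the log2 difference between genotypes was 0.04 for Camk1 (0.010 with it), 0.06 for Camkk1 (0.04 with it) and −0.03 for Camkk2 (−0.02 with it).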

How the results depend on the processing

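The log2 difference of Camk4 lay between −0.11 and −0.09 under every alternative run, and the log2 differences of the 9 other kinase genes moved by less than their spread between mice, although those of Camk1, Camk1d, Camk1g and Camk2a changed sign around 0 when single mice were left out. The 31 genes at an adjusted p under 0.1 became 20 with no filter on low values and 15 with limma without the trend, and 25 to 40 when each mouse was left out. The 5 pathway genes at an unadjusted p under 0.01 became 2 without the trend, and 2 to 6 when each mouse was left out; Dclk3 passed under every alternative, whereas Dclk1, Mylk3, Hdac9 and Mef2c each lost the call under some. The cause of these changes was not tested. With the longest transcript as the length, the neighbour pairs that kept their direction and passed went from 8 to 4. Of those 8, the log2 difference reversed to −0.24 for Camk4 over Camk2g, −0.83 for Camk1d over Camk2d and −0.83 for Camk1g over Camk1, each past the threshold, and Camkk1 over Camk1d no longer passed, at 0.07 (adjusted exact permutation p = 0.0938). Camkk2 over Camkk1, which had not passed, reversed to 1.15 and passed. Only the lengths differ in this alternative. Leaving out each wt/wt mouse put Camkk2 over Camkk1 between −0.0217 and 0.0039, and it turned positive without wt/wt replicate 1 (adjusted exact permutation p = 0.766). No correlation of Camk4 passed under any alternative (smallest adjusted permutation p = 0.155).

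Both genotypes carry replicate numbers 1 to 8. Deviations of same-numbered mice correlated between −0.04 and 0.15, over 0.1 for 1 number only, so the numbers were not taken as pairs. With the replicate block, 46 genes passed an adjusted p under 0.1, 419 passed an unadjusted p under 0.01 beside 362 without it, 6 pathway genes passed, and the log2 difference of Camk4 was −0.10. Read depth is not carried by the deposited values, so the precision at low values such as those of Mylk3 is known only from the spread between mice.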
